A study of Macaca fascicularis with 28 samples.

Results

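Fungiform (FG) taste buds were compared with the non-gustatory lingual epithelium (LE) that surrounds the papillae they sit in. The 12 samples chosen by their labels, of 28 in the series, were 6 of FG taste buds and 6 of LE taken adjacent to FG papillae, 1 of each kind from each of the animals numbered 1 to 6. The animals were cynomolgus macaques (Macaca fascicularis) of 2.6 to 4.5 years, 4 females and 2 males (animals 3 and 4), and the labels give no treatment. Each sample was an area of tissue cut out by laser capture microdissection, so that it holds every cell type within the cut, and its amplified RNA was hybridized to an Affymetrix Rhesus Macaque Genome array. LE taken adjacent to circumvallate (CV) papillae was not pooled with these samples, and with CV taste buds it serves only for the comparison of papillae at the end.

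A taste bud is a compact group of neuroepithelial cells that are renewed from basal cells throughout life. Type I cells are glia-like and clear transmitter, type II cells carry the G protein-coupled receptors for sweet, umami or bitter and signal through a gustducin, phospholipase C and TRPM5 cascade, and type III cells are presynaptic cells that respond to sour. The surrounding epithelium is a stratified squamous sheet whose cells leave the basal layer, fill with keratins, build a cornified envelope and are shed, with serine proteases and their inhibitors setting the pace of shedding.

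Marker genes show what the cuts held. Summed over 32 skeletal muscle markers on the array, LE of animal 3 had 30908 units, whereas the other 5 LE samples lay between 1838 and 3219. Of the 22 muscle markers that were tested, 20 had their highest LE value in animal 3 and 2 their lowest. The myosin light chain MYL1 was at 4226 units in LE of animal 3 and at most 224 in the other LE samples. FG taste buds of animal 3 had 7945 units of the muscle sum, those of animals 2 and 4 had 5052 and 4320.1, and the other 3 had 2147 to 2356. The sum of 29 genes of differentiated keratinocytes was highest among taste buds in animal 4, at 36640.0 units against 13257 to 24914 in the other 5, while LE held 144610.0 (animal 6) to 194200.0 (animal 1). LE of animal 6 was the lowest LE sample in 16 of the 26 tested differentiation genes. The sum of 5 basal epithelial genes was 334 units in LE of animal 5 and 1992 to 5133 in the other LE samples.

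**Figure D1:**
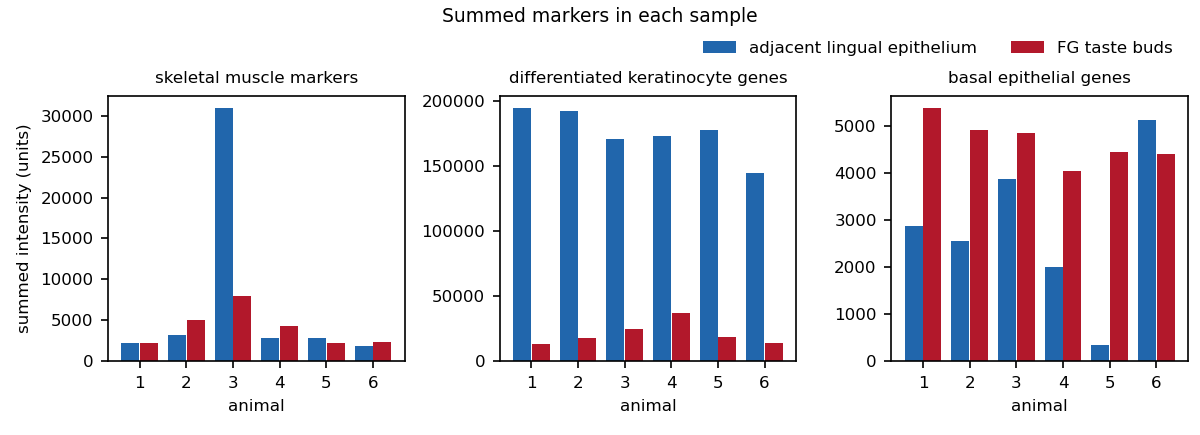
Summed intensity of 3 marker lists in each sample, in units on linear axes that start at 0, by animal, with LE in blue and FG taste buds in red. LE of animal 3 stands out for muscle, taste buds of animal 4 have the highest differentiation sum of the taste buds, and LE of animal 5 has the lowest basal sum of the LE samples.

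On the first principal component, with 50.0% of the variance, the taste buds lay between 121 and 132 and LE between -166 and -67.7, with LE of animal 6 nearest to the taste buds. The second component, with 8.80% of the variance, separated LE of animal 3 from all other samples. Of 23482 probe sets with at least 25 units in 4 or more of the 12 samples, 2116 (9.01%) passed an adjusted p of 0.05 in limma, with the animal as a block, and a 5-fold rise in FG taste buds, and 947 (4.03%) passed with a 5-fold fall. For single genes and the members of a list no fold was required, only the adjusted p. By that rule and with 1 probe set per gene, 1629 of 8920 tested genes (18.3%) were higher and 1577 (17.7%) lower, with a median log2 change of 0.0679, and each list below is read against these shares. A gene that is bright in 1 tissue only reached the limit through that tissue, so the counts over tested members describe those members and support no direction of a list. With every array centred on its own median, 1431 probe sets were called higher and 1464 lower, so that the share of calls that were higher moved from 69.1% to 49.4%. That centring lowered the median log2 change of tested probe sets from 0.08 to -0.39. Without animal 3, 2016 were called higher and 962 lower. In such tissue samples, fewer cells of a type and less RNA per cell cannot be told apart.

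**Figure D2:**
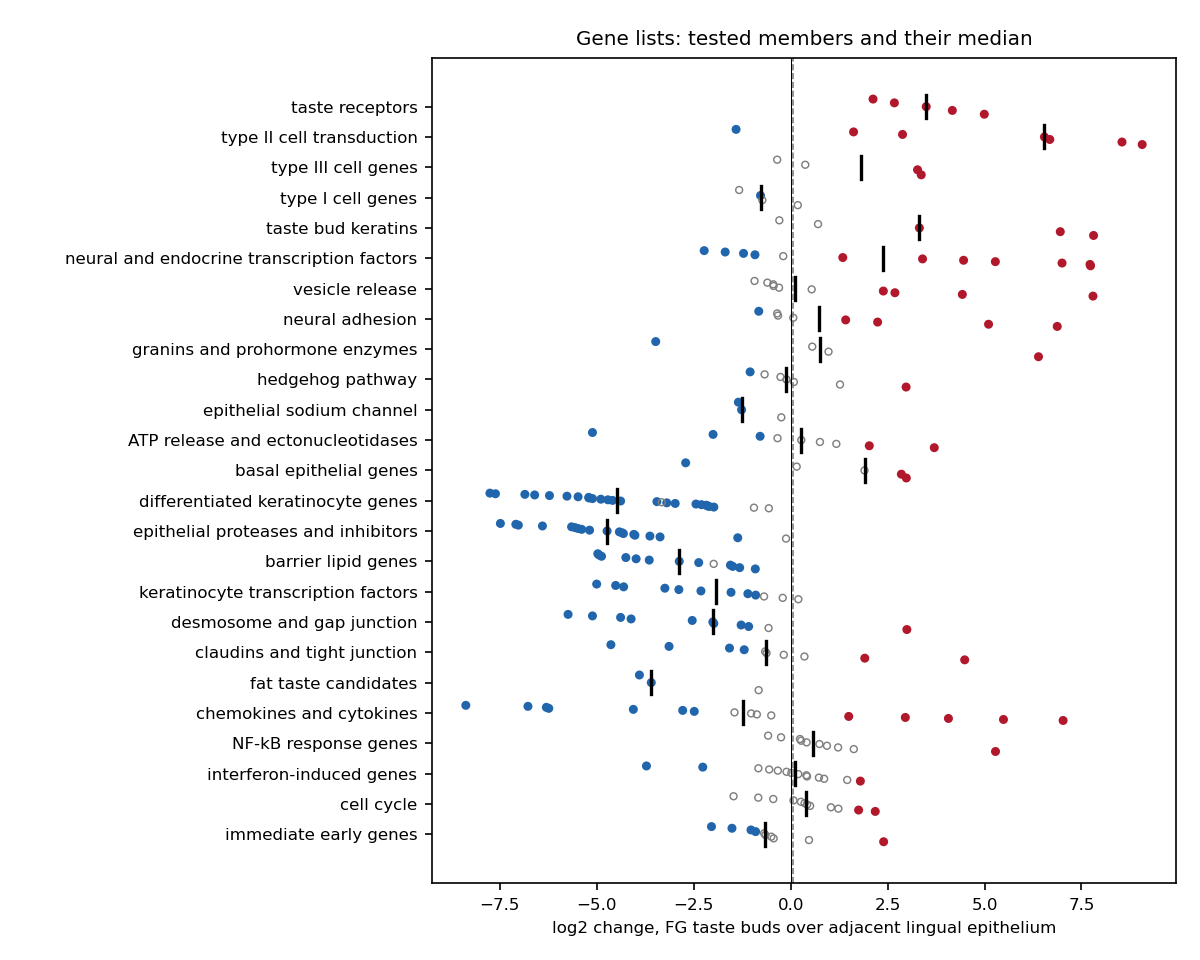
Log2 change of each tested member of 25 gene lists in FG taste buds over adjacent LE (x axis), with members that passed the adjusted p of limma filled (red higher, blue lower), members that did not pass as open circles, the median of each list as a black bar and the median of all genes as a dashed line. Taste and transduction genes lie to the right and genes of differentiated epithelium to the left, and several lists hold members that moved in opposite directions.

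Of 19 taste receptor genes of the annotation, 5 reached the intensity limit and 14 were too dim to test. All 5 were higher in taste buds, where 18.3% of all tested genes were, but 4 of them were below 25 units in every LE sample and so reached the limit only through the taste buds. Without the limit, 6 of 19 passed as higher and none as lower, with a median log2 change of 0.21. With values raised to 25 units, 4 of the 5 tested genes passed as higher. TAS1R1, a subunit of the umami receptor, ranged from 308 to 499 units in taste buds (median 397) and from 21.1 to 64.2 in LE (median 36.2), a log2 change of 3.50 ± 0.32, adjusted p = 0.000188 by limma. The groups did not overlap, which was also so for 2322 higher and 2218 lower probe sets of the 23482 tested. TAS1R2, a subunit of the sweet receptor, was far dimmer, at 24.5 to 92.3 units in taste buds (median 41.8) and 7.33 to 16.1 in LE (median 10.1), a log2 change of 2.12 ± 0.39, adjusted p = 0.00488 by limma. The bitter receptor TAS2R4 had 108 to 301 units in taste buds (median 275) and no more than 10.4 in LE, which is at least 9.02-fold higher (log2 change 4.99 ± 0.38, adjusted p = 7.78e-05 by limma). TAS2R10, another bitter receptor, spread more widely, from 20.3 units in taste buds of animal 1 to 422 in those of animal 3 (median 216), and the next lowest taste bud sample had 165. In LE it stayed at 4.27 to 14.4 units, so the samples of animal 1 were both below 25 units (log2 change 4.17 ± 0.57, adjusted p = 0.00136 by limma). TAS2R8 rose as well (log2 change 2.67 ± 0.39, adjusted p = 0.00174 by limma). TAS2R50, named only by the gene table of the study, which was drawn up on these samples, had 116 to 432 units in taste buds and 9.04 to 23.5 in LE.

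The type II cell cascade gave changes of 2.89 to 9.07 on the log2 scale for its core members. GNAT3, the α-subunit of gustducin, ranged from 2295 to 4490.0 units in taste buds (median 3216) and from 4.73 to 8.41 in LE (median 5.58), where every sample was below 25 units. It was at least 129-fold higher, with a log2 change of 9.07 ± 0.29, adjusted p = 4.7e-06 by limma. GNG13, its γ-subunit, lay at 3617 to 5458 units against 21.8 to 34.5 (log2 change 7.27 ± 0.23, adjusted p = 4.7e-06 by limma), and the β-subunit GNB3 at 1605 to 2332 against 14.7 to 27.9 (log2 change 6.55 ± 0.24, adjusted p = 5.06e-06 by limma). The name GNG13 comes only from the gene table of the study, which lists genes selected as higher in taste buds. PLCB2, the phospholipase of the cascade, had 4135 to 5428 units in taste buds (median 5109) and 22.7 to 112 in LE (median 40.1), which is 101-fold higher (log2 change 6.68 ± 0.40, adjusted p = 2.57e-05 by limma). TRPM5, the cation channel that depolarizes the cell, had 193 to 382 units in taste buds (median 271) and 20.7 to 62.0 in LE (median 39.8), a log2 change of 2.89 ± 0.31, adjusted p = 0.000389 by limma. None of these genes overlapped between the groups in any sample, a trait shared by 2322 higher probe sets of the 23482 tested.

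The sodium channel SCN3A, which carries action potentials in type II cells, had 1429 to 2718 units in taste buds and at most 9.99 in LE (log2 change 8.55 ± 0.34, adjusted p = 5.61e-06 by limma). POU2F3, the transcription factor that specifies type II cells and is named here only by the gene table of the study, had 1216 to 1915 units in taste buds and 23.6 to 41.2 in LE. That table lists genes selected as higher in taste buds. Of the 7 tested type II genes of the annotation, 6 rose, with a median log2 change of 6.54, and TRPM4 fell. Without the intensity limit, 6 of 11 passed as higher and 3 as lower, with a median of 1.62. TRPM4, a relative of TRPM5, had 22.9 to 59.4 units in taste buds and 41.6 to 238 in LE (log2 change -1.41 ± 0.40, adjusted p = 0.0286 by limma), and this call was lost when animal 3, 4, 5 or 6 was left out (adjusted p 0.0668 to 0.0721). The inositol trisphosphate receptor ITPR3 could not be read clearly. Its brightest probe set stayed at 11.2 to 19.2 units in taste buds and 19.1 to 48.1 in LE and was not tested, whereas another probe set of the gene was higher in taste buds by 3.58 on the log2 scale.

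Of the type III cell genes of the annotation, 4 were tested and 2 rose. Without the intensity limit, 2 of 7 passed as higher and none as lower. PKD2L1, a channel that marks sour-sensing cells, had 151 to 342 units in taste buds (median 231) and 15.8 to 35.3 in LE (median 22.5), a log2 change of 3.27 ± 0.32, adjusted p = 0.000261 by limma without overlap. TPH1, which makes serotonin, ranged from 19.2 to 175 units in taste buds and from 3.62 to 10.2 in LE (log2 change 3.37 ± 0.54, adjusted p = 0.00285 by limma), and taste buds of animals 4 and 5 were below 25 units. SNAP25, a SNARE protein of synaptic vesicle release, had 48.4 to 145 units in taste buds and 4.84 to 18.9 in LE (log2 change 3.32 ± 0.41, adjusted p = 0.000804 by limma). That probe set is called SNAP25 by the gene table of the study and DPYSL3 by the annotation of the array. NCAM1, the adhesion molecule used as a type III marker, depended on the probe set. Its brightest probe set had 384 to 898 units in taste buds and 519.7 to 1238 in LE (log2 change -0.35 ± 0.23, adjusted p = 0.267 by limma), whereas 2 of 5 other tested probe sets were higher in taste buds, by up to 6.46 on the log2 scale.

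No gene of the type I list rose. ENTPD2, the ectonucleotidase of type I cells, was dim in both tissues, at 30.3 to 43.2 units in taste buds (median 36.2) and 38.3 to 89.2 in LE (median 67.1). Taste buds had the lower value in each of the 6 animals (log2 change -0.79 ± 0.25, adjusted p = 0.0384 by limma), and the call was lost when animal 1, 2, 3, 4 or 5 was left out (adjusted p 0.0654 to 0.0935). A second ENTPD2 probe set did not pass (log2 change 0.01). ENTPD3, another ATP-degrading ectonucleotidase, went the other way, from 82.1 to 1085 units in LE (median 480.1) to 3749 to 5426 in taste buds (median 4455), 13.0-fold higher with a log2 change of 3.70 ± 0.54, adjusted p = 0.00186 by limma. Its other tested probe set did not pass (log2 change 2.49). The glutamate transporter SLC1A3 and the glutamine synthetase GLUL did not pass (adjusted p of 0.465 and 0.739 by limma). Among taste bud keratins, KRT19 had 3294 to 5171 units in taste buds and 19.7 to 55.9 in LE, KRT20 had 1902 to 3348 against 8.31 to 15.8, and KRT7 had 2548 to 3929 against 27.1 to 1522. All 3 passed in limma, with log2 changes of 6.95, 7.81 and 3.32. KRT8 did not pass, at 28.5 to 156 units in taste buds and 29.7 to 74.1 in LE (log2 change 0.71 ± 0.34, adjusted p = 0.138 by limma), and the probe set of KRT18 was too dim to test.

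**Figure D3:**
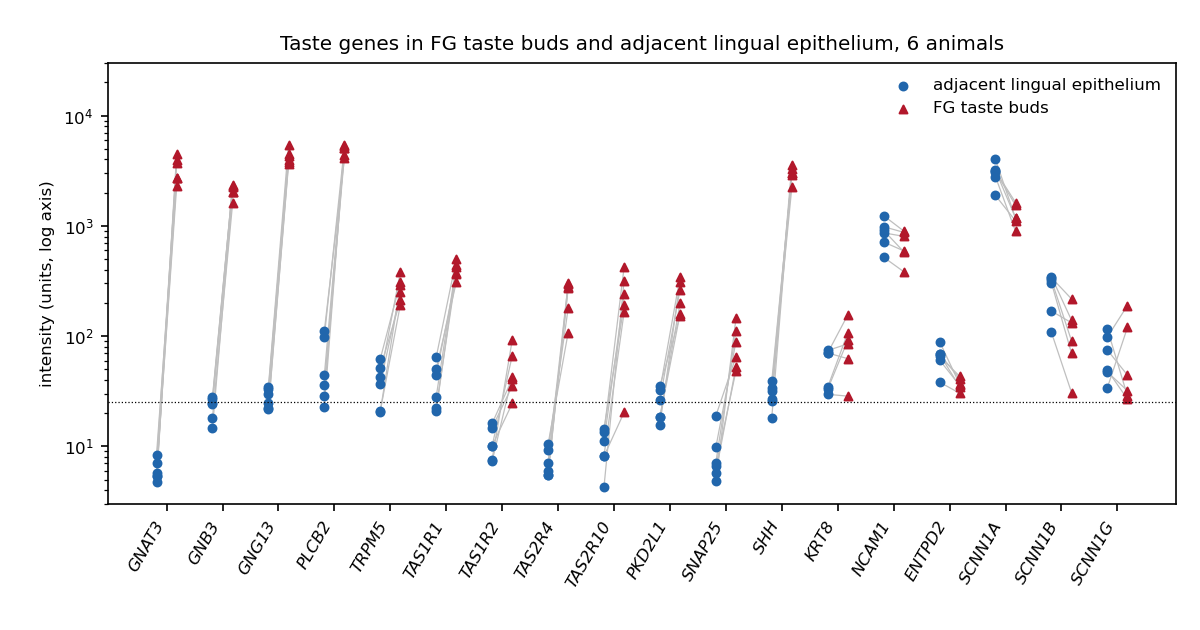
Intensity in units (log axis) of 18 genes in adjacent LE (blue circles) and FG taste buds (red triangles) of 6 animals, with grey lines joining the samples of 1 animal and a dotted line at 25 units. The transduction genes are higher in every taste bud sample than in any LE sample, whereas SCNN1A, SCNN1B and ENTPD2 are lower in taste buds and SCNN1G has no common direction.

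The epithelial sodium channel, the amiloride-sensitive route for salt, was lower in taste buds for 2 of its 3 subunits on the array. SCNN1A, the α-subunit, had 890.0 to 1628 units in taste buds (median 1172) and 1887 to 4008 in LE (median 3119.8), a log2 change of -1.27 ± 0.26, adjusted p = 0.00826 by limma without overlap. SCNN1B, the β-subunit, had 30.8 to 217 units in taste buds (median 111) and 108 to 346 in LE (median 315). The groups overlapped, but SCNN1B was lower in 6 of 6 animals (log2 change -1.35 ± 0.32, adjusted p = 0.0146 by limma). SCNN1G, the γ-subunit, had 26.9 to 189 units in taste buds and 33.9 to 116 in LE, and was higher in taste buds of animals 2 and 3 and lower in those of the other 4 (log2 change -0.24 ± 0.50, adjusted p = 0.725 by limma). Among fat taste candidates, the fatty acid binding protein FABP5 fell from 3265 to 5540.1 units in LE to 225 to 672 in taste buds (log2 change -3.60 ± 0.27, adjusted p = 6.82e-05 by limma). FABP4 was lower in 5 of 6 animals (log2 change -3.90 ± 1.15, adjusted p = 0.0317 by limma), a call lost when animal 1, 3, 5 or 6 was left out (adjusted p 0.059 to 0.0816). A second FABP4 probe set did not pass (log2 change -1.40). The fatty acid receptors CD36, FFAR4 and GPR84 were not tested, since fewer than 4 samples reached 25 units.

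Transcription factors of neural and endocrine development moved in both directions: 7 of 12 tested rose and 4 fell, with a median log2 change of 2.37. Of all tested genes, 18.3% were higher and 17.7% lower. Without the intensity limit, 7 of 14 passed as higher and 4 as lower, with a median log2 change of 0.58. PROX1, a homeobox factor, had 1259.9 to 2452 units in taste buds (median 1789) and 4.25 to 18.5 in LE (log2 change 7.74 ± 0.40, adjusted p = 1.27e-05 by limma). INSM1, a zinc finger factor of neuroendocrine cells, had 1431 to 2105 against 6.34 to 10.7 (log2 change 7.72 ± 0.23, adjusted p = 4.7e-06 by limma), and the HMG-box factor TOX3 559 to 1414 against 4.98 to 12.9 (log2 change 7.00 ± 0.28, adjusted p = 5.61e-06 by limma). SOX2, which the taste progenitors need, differed less, from 842 to 1629 units in LE to 2612 to 3288 in taste buds (log2 change 1.34 ± 0.25, adjusted p = 0.00501 by limma). FOXA1 and FOXA2, paralogous forkhead factors, moved in opposite directions, FOXA1 with 18.7 to 50.6 units in taste buds against 93.8 to 253 in LE and FOXA2 with 349.5 to 706 against 10.1 to 22.0. Both passed in limma, with log2 changes of -2.23 and 5.28. The hairy and enhancer of split factors also split, with a log2 change of -1.69 for HES1 and 3.40 for HES6.

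Part of the genes of vesicle release and neural adhesion rose. SYT1, the calcium sensor of fast exocytosis, had 1592 to 2506 units in taste buds and 4.55 to 19.3 in LE (log2 change 7.80 ± 0.36, adjusted p = 9.27e-06 by limma), and the priming factor UNC13B had 2851 to 4216 against 88.4 to 1263 (log2 change 2.69 ± 0.46, adjusted p = 0.00359 by limma). With SV2B and RAB3A, 4 of 10 tested vesicle genes rose and none fell, with a median log2 change of 0.12 that turned to -0.35 with centred arrays, under which 4 fell, and to -0.25 over all 13 without the intensity limit. SV2B was at 28.8 units in taste buds of animal 1 and at 139 to 342 in the other 5. Of 8 tested neural adhesion genes, 4 rose and NRXN2 fell. Without the intensity limit, 4 of 16 adhesion genes passed as higher and 1 as lower, with a median log2 change of -0.06. The synaptic organizer SLITRK6 had 1584 to 2433 units in taste buds and 4.91 to 67.4 in LE, and the neurexin NRXN3 555 to 1638 against 23.3 to 72.3, with log2 changes of 6.88 and 5.10, both passing in limma. NRXN2 had 27.6 to 39.6 units in taste buds and 43.4 to 75.4 in LE (log2 change -0.82 ± 0.26, adjusted p = 0.0386 by limma), a call lost when any 1 animal was left out (adjusted p 0.0509 to 0.102). L1CAM was higher in 5 of 6 animals (log2 change 2.24 ± 0.62, adjusted p = 0.0257 by limma), and its call was lost when animal 1, 2, 4 or 5 was left out (adjusted p 0.0504 to 0.0692).

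Secretory granule genes included CHGB, a granin, at 324 to 598 units in taste buds (median 525) and 4.83 to 7.14 in LE (median 5.41), a log2 change of 6.39 ± 0.26, adjusted p = 5.61e-06 by limma. CPE, the carboxypeptidase that trims prohormones, had 4726 to 5369 units in taste buds and 7.42 to 63.4 in LE, and SCG5, the chaperone of prohormone convertase, 6062 to 7703 against 9.93 to 60.5. Both names come from the gene table of the study, which lists genes selected as higher in taste buds. NUCB2, the precursor of nesfatin, fell from 2526 to 6826 units in LE to 97.8 to 932 in taste buds (log2 change -3.48 ± 0.44, adjusted p = 0.000985 by limma).

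Sonic hedgehog marked taste buds, while most of the pathway did not pass. SHH, a ligand made by the post-mitotic basal cells of the bud, had 2263 to 3569.6 units in taste buds (median 3019) and 18.1 to 39.0 in LE (median 29.3), at least 98.9-fold higher with a log2 change of 6.71 ± 0.28, adjusted p = 5.61e-06 by limma. Its probe set is named only by the gene table of the study, which lists genes selected as higher in taste buds. DISP1, which releases the ligand from the cell, had 75.4 to 143 units in taste buds and 5.95 to 49.8 in LE (log2 change 2.98 ± 0.40, adjusted p = 0.0012 by limma). The receptor PTCH1 and the transducer SMO did not pass (adjusted p of 0.79 and 0.0677 by limma), and the target GLI1 was too dim to test. GLI2, a transcription factor of the pathway, had no more than 21.8 units in taste buds and 23.3 to 50.1 in LE (log2 change -1.05 ± 0.28, adjusted p = 0.0239 by limma). That call was lost when animal 3 or 4 was left out (adjusted p 0.0584 to 0.0656) and with values raised to 25 units. In addition, 2 other probe sets of GLI2 passed with higher values in taste buds.

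Most tested genes of squamous differentiation were lower in taste buds. Of 26 tested differentiated keratinocyte genes, 23 fell and none rose, with a median log2 change of -4.49, against 17.7% of all tested genes. Leaving out any 1 animal gave 23 or 24 lower. Members that were dim in every taste bud sample, such as IVL, reached the intensity limit only through LE. Without the limit, 24 of 29 passed as lower and none as higher, with a median log2 change of -3.45. IVL, involucrin of the cornified envelope, had 4.70 to 22.0 units in taste buds (median 9.84) and 887 to 3229 in LE (median 2005), at least 75.7-fold lower in taste buds with a log2 change of -7.61 ± 0.49, adjusted p = 3.59e-05 by limma. MAL, a proteolipid of apical membranes, had 11.8 to 389 units in taste buds (median 30.6) and 7024 to 9414 in LE (median 8641), a log2 change of -7.76 ± 0.63, adjusted p = 0.000104 by limma. SCEL, sciellin of the envelope, had 6.92 to 163 against 1508 to 3993 (log2 change -6.86 ± 0.64, adjusted p = 0.00021 by limma). KRT10, KRT16 and KRT76 were the 3 tested members that did not pass, with log2 changes of -0.56, -0.95 and -3.32.

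Most tested proteases, inhibitors and barrier lipid genes were lower too. Without the intensity limit, 18 of 20 proteases and inhibitors and 12 of 14 barrier lipid genes passed as lower. Of 19 tested epithelial proteases and inhibitors, 18 fell and SERPINB5 did not pass (log2 change -0.12 ± 0.26, adjusted p = 0.736 by limma). TMPRSS11E, a membrane serine protease, had 4.71 to 10.9 units in taste buds and 116 to 3800.4 in LE. KLK7, the kallikrein that cleaves corneodesmosomes, had 7.41 to 209.8 against 3416 to 7975, and the inhibitor SPINK7 7.73 to 239.6 against 712 to 7214. These 3 had log2 changes of -7.49, -7.09 and -7.02 and passed in limma. Of 13 tested barrier lipid genes, 12 fell, led by the lipoxygenases ALOX15B (8.96 to 79.2 units against 363 to 1746), ALOX12 (16.0 to 35.1 against 418 to 1135) and ALOX12B (12.9 to 144 against 59.1 to 2974). Of 12 keratinocyte transcription factors, 9 fell, among them ZNF750, an activator of terminal differentiation, from 663 to 1604 units in LE to 14.8 to 49.9 in taste buds (log2 change -5.00 ± 0.27, adjusted p = 1.62e-05 by limma). PRDM1 and GRHL1 fell too, with log2 changes of -4.51 and -4.31.

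The taste buds differed among themselves in some genes of this program. The differentiation sum of taste buds was 6.83% (animal 1) to 21.2% (animal 4) of that in their own LE. The 6 genes described next were chosen after their values were seen and ranged most among taste buds. The other tested genes of the differentiation and protease lists ranged from 1.33-fold (WFDC5) to 36.8-fold (SERPINB13). SPRR3, a small proline-rich protein of the envelope, was at 23.2 units in taste buds of animal 1, 101 in animal 5, 210.4 in animal 6, 1808 in animal 2, 3334 in animal 3 and 8615 in animal 4, a 372-fold range, while LE stayed at 17195 to 21894. In animal 4 the taste buds had 44.2% of the SPRR3 value of their own LE, and in animal 1 0.11%. KRT4 and KRT13, the keratin pair of the suprabasal tongue, ranged 151-fold and 65.3-fold among taste buds and 1.15-fold and 1.09-fold in LE, and CRNN, CSTA and TMPRSS11B also had their highest taste bud values in animal 4. IVL, by contrast, stayed below 25 units in all 6 taste bud samples and SBSN at 40.0 to 99.1, so the genes did not scale together. The muscle sum of the taste buds was also high in animals 2, 3 and 4, and its part in these values was not tested.

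**Figure D4:**
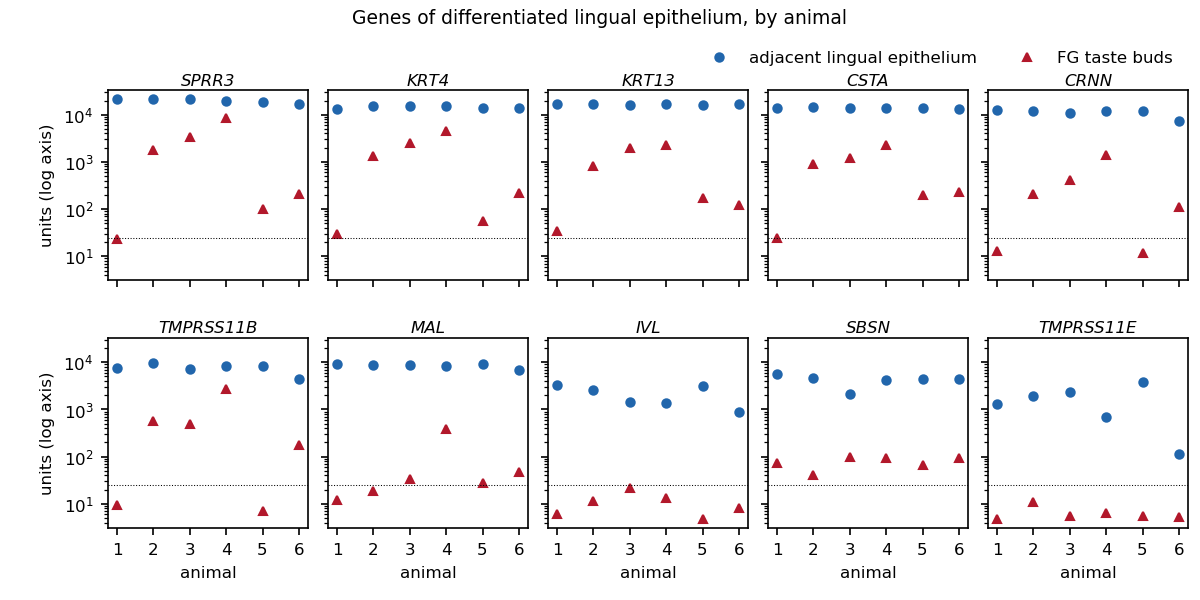
Intensity in units (log axis) of 10 genes of differentiated epithelium by animal, in adjacent LE (blue circles) and FG taste buds (red triangles), with a dotted line at 25 units. SPRR3, KRT4, KRT13, CSTA, CRNN and TMPRSS11B are near flat in LE and range widely among taste buds with the highest value in animal 4, whereas IVL, SBSN and TMPRSS11E are low in every taste bud sample.

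Junction genes moved in both directions, where 18.3% of all tested genes were higher and 17.7% lower. Of 11 tested desmosome and gap junction genes, 9 fell, including the plakophilin PKP1 (11.9 to 58.7 units in taste buds and 345 to 2101 in LE, log2 change -5.74 ± 0.37, adjusted p = 3.66e-05 by limma) and the connexin GJB6 (12.3 to 106 against 533 to 3775, log2 change -5.11 ± 0.66, adjusted p = 0.00105 by limma). DSG1, a desmoglein, fell by 4.39 on the log2 scale, although LE of animal 5 was at only 47.9 units. DSC1, a desmocollin, rose, from 5.43 to 21.7 units in LE to 18.7 to 209.9 in taste buds (log2 change 3.00 ± 0.57, adjusted p = 0.00608 by limma). Taste buds of animals 1 and 2 were below 25 units for it. Of 10 tested tight junction genes, 4 fell and 2 rose. CLDN1 had 6.98 to 102 units in taste buds and 383 to 948 in LE, and CLDN8 6.49 to 38.9 against 32.3 to 407. CLDN5, otherwise a claudin of endothelium, had 354 to 855 units in taste buds and 15.2 to 36.4 in LE (log2 change 4.49 ± 0.35, adjusted p = 8.85e-05 by limma). Of 14 endothelial and mural markers on the array, 6 were tested, and CDH5, KDR, FLT1 and EMCN were among those too dim. The sum of the 14 in taste buds was 30.0% of that in their own LE in animal 3 and 90.9% in animal 1. In animals 2, 4, 5 and 6 it was 107% to 287%. A part of endothelium in the CLDN5 values was not tested.

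Basal epithelial genes were not lower together. ITGB4, the β-chain of the hemidesmosomal integrin, had 599.8 to 1518 units in taste buds (median 861) and 73.4 to 166 in LE (median 127), a log2 change of 2.85 ± 0.35, adjusted p = 0.000858 by limma. Its partner ITGA6 was tight in taste buds, at 1877 to 2079 units, and loose in LE, at 10.2 in animal 5 and 275 to 662 in the other 5 (log2 change 2.98 ± 0.77, adjusted p = 0.0194 by limma). TP63, the factor that maintains the basal layer, was lower in taste buds of 5 of 6 animals, at 33.9 to 401 units against 129 in LE of animal 5 and 945 to 3459 in the other LE samples (log2 change -2.71 ± 0.83, adjusted p = 0.0354 by limma), and its call was lost when animal 1, 2, 3, 4 or 6 was left out (adjusted p 0.0643 to 0.0844). Without animal 5, whose LE had the least basal signal, the TP63 log2 change was -3.55 (adjusted p = 0.00642 by limma). LAMB3, COL17A1 and DST, further hemidesmosome and basement membrane genes, were higher in taste buds by 5.23, 3.55 and 3.87 on the log2 scale, but are named only by the gene table of the study. That table lists probe sets already selected as higher in taste buds, so these genes say nothing on the direction of the list.

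Chemokines and cytokines went both ways, with 5 of 16 tested higher and 7 lower. Of all tested genes, 18.3% were higher and 17.7% lower. Without the intensity limit, 5 of 26 members passed as higher and 10 as lower. CXCL17, a mucosal chemokine, had the largest fall of the list, from 3226 to 4067 units in LE (median 3627) to 5.62 to 26.8 in taste buds (median 9.53), at least 145-fold lower with a log2 change of -8.38 ± 0.35, adjusted p = 5.61e-06 by limma. IL36A, a cytokine of stressed epithelium, had 9.15 to 147 units in taste buds and 362 to 5996 in LE (log2 change -6.78 ± 0.58, adjusted p = 0.000139 by limma), and IL18, IL33 and IL36RN fell with log2 changes of -6.24, -4.06 and -6.30. CCL2, which attracts monocytes, had 831 to 2533 units in taste buds (median 1176) and 8.03 to 12.9 in LE (median 10.4), at least 54.9-fold higher with a log2 change of 7.03 ± 0.35, adjusted p = 1.18e-05 by limma. IL1B varied widely among taste buds, from 64.6 units in animal 6 to 6128 in animal 4 (median 3014), against 6.89 to 470.3 in LE, and was higher in taste buds of 6 of 6 animals (log2 change 5.49 ± 1.06, adjusted p = 0.00651 by limma). Interleukin-8 was read by 2 probe sets of very different response. The one the gene table of the study names IL8 had 1289 to 5444 units in taste buds and 4.65 to 22.2 in LE (log2 change 8.29 ± 0.51, adjusted p = 2.92e-05 by limma), and the one the annotation names CXCL8 had 16.3 to 96.4 against 10.6 to 21.9 (log2 change 1.50 ± 0.41, adjusted p = 0.0252 by limma). The largest rise among all named genes was CXCL14, a chemokine, at 5888 to 7571 units in taste buds and 5.30 to 15.9 in LE (log2 change 9.77 ± 0.30, adjusted p = 4.7e-06 by limma). Its probe set is named by the gene table of the study, while the annotation calls it TPM2, a tropomyosin, so the identity of that transcript is uncertain here.

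Inflammatory response genes outside the chemokines mostly did not pass, nor did most tested genes, of which 18.3% were higher and 17.7% lower. UBD, a ubiquitin-like protein induced by cytokines, had 245 to 1026 units in taste buds and 11.7 to 19.0 in LE (log2 change 5.27 ± 0.34, adjusted p = 3.7e-05 by limma), and it was the 1 gene of 10 tested NF-kB response genes that rose. SOD2, TNFAIP3 and BIRC3 did not pass (adjusted p of 0.815, 0.462 and 0.328 by limma). The NF-kB list summed to 2025 units in taste buds of animal 1 and 7425 in those of animal 4. Of 14 interferon-induced genes, MX2 and ISG15 fell, with log2 changes of -3.72 and -2.27, and IRF7 rose on its brightest probe set, by 1.80 on the log2 scale, with the call lost when animal 2 or 5 was left out (adjusted p 0.0596 to 0.0623) and another probe set of IRF7 passing in the opposite direction. Of 12 tested cell cycle genes, PCNA rose (log2 change 2.18 ± 0.48, adjusted p = 0.011 by limma), as did MCM2 (log2 change 1.75 ± 0.48, adjusted p = 0.0239 by limma), and none fell, while with centred arrays 1 rose and 2 fell. The MCM2 call was lost when animal 1, 2 or 5 was left out (adjusted p 0.0599 to 0.0655). PCNA was at 365 units in LE of animal 6, at 36.9 to 151 in the other LE samples and at 233 to 518 in taste buds, and MKI67 was too dim to test. Of 10 tested immediate early genes, 4 fell and 1 rose, among them JUNB, MYC and the riser ZFP36, with log2 changes of -1.51, -2.04 and 2.40. The MYC call was lost with values raised to 25 units (adjusted p = 0.0908 by limma).

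Most markers of other cell types did not pass, nor did most tested genes, of which 18.3% were higher and 17.7% lower. Of 22 tested muscle markers, TNNC1 fell and CASQ2 rose, and the 8 brightest in LE of animal 3 did not pass (adjusted p of 0.126 for MYH2 to 0.964 for MYL1 by limma). TNNC1, slow troponin C, was at 1262 units in LE of animal 3, but its log2 change was -2.17 ± 0.47, adjusted p = 0.0102 by limma with that animal and -1.90 (adjusted p = 0.0271) without it. The leukocyte markers CD68, LYZ and CD1A fell, with log2 changes of -3.05, -2.74 and -3.26, and the other 9 tested did not pass. CD68 had 71.6 to 122 units in taste buds and 319 to 2216 in LE, but a second CD68 probe set passed with higher values in taste buds. PTPRC, the pan-leukocyte marker, had 61.8 to 653 units in taste buds and 21.2 to 246 in LE (log2 change 1.15 ± 0.80, adjusted p = 0.286 by limma). GAP43, a protein of growing axons, rose from 13.9 to 282 units in LE to 166 to 475 in taste buds (log2 change 2.76 ± 0.43, adjusted p = 0.00248 by limma), with the Schwann cell factor SOX10 too dim to test. A second GAP43 probe set did not pass (log2 change -0.34). Of 4 tested melanocyte markers, 1 rose and 1 fell. MLANA, a melanosomal protein, had 11.4 to 674 units in taste buds and 5.71 to 88.6 in LE, with the higher value in taste buds of every animal (log2 change 2.93 ± 0.59, adjusted p = 0.0077 by limma). SLC45A2, a transporter of melanosomes, had 767 to 1668 units in taste buds and 1717 to 9789.6 in LE (log2 change -2.27 ± 0.41, adjusted p = 0.00495 by limma), although TYR, TYRP1, DCT and PMEL did not exceed 26.0 units in any sample. Of 4 tested salivary gland markers, 1 rose and 1 fell, and a second probe set of the riser AZGP1 did not pass (log2 change 0.86). AZGP1, a secreted glycoprotein also made by salivary gland, rose from 27.3 to 556 units in LE to 866 to 2055 in taste buds (log2 change 4.10 ± 0.51, adjusted p = 0.000827 by limma), and BPIFA1, a secreted airway and salivary protein, had 10.4 to 24.1 units in taste buds and 15.1 to 38.4 in LE (log2 change -0.82 ± 0.25, adjusted p = 0.0361 by limma), a call lost when animal 1, 2, 3, 4 or 5 was left out (adjusted p 0.0583 to 0.0889), while the salivary genes MUC7, LPO, AQP5 and BPIFA2 were too dim to test. The BPIFA1 call was also lost with values raised to 25 units.

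Of 12 tested fibroblast and matrix markers, 2 rose and 1 fell, and of 6 tested endothelial and mural markers 2 fell and none rose. Among all tested genes, 18.3% were higher and 17.7% lower. LOX, which crosslinks collagen, had 12.3 to 20.8 units in taste buds and 28.4 to 54.5 in LE without overlap (log2 change -1.09 ± 0.27, adjusted p = 0.0174 by limma). The smooth muscle gene TAGLN had 22.0 to 36.7 units in taste buds and 29.0 to 93.7 in LE (log2 change -0.97 ± 0.27, adjusted p = 0.0246 by limma), and MYH11, the smooth muscle myosin, had 16.1 to 33.3 units in LE and stayed under 25 in every taste bud sample (log2 change -0.80 ± 0.27, adjusted p = 0.0477 by limma). These calls were lost when animal 2 or 4 was left out (adjusted p 0.0508 to 0.0555) for LOX, when animal 2, 3, 4 or 5 was left out (adjusted p 0.0553 to 0.0677) for TAGLN and when animal 2 or 6 was left out (adjusted p 0.0573 to 0.0864) for MYH11. Every taste bud value of LOX and MYH11 was under 25 units, and both calls were also lost with values raised to 25 units. VIM, vimentin of mesenchyme and of some epithelial cells, had 1811 to 3693 units in taste buds and 906 to 1953 in LE (log2 change 1.05 ± 0.33, adjusted p = 0.04 by limma), a call lost when animal 1, 2, 4 or 5 was left out (adjusted p 0.0833 to 0.102). COL6A3 passed only narrowly (log2 change 2.39 ± 0.74, adjusted p = 0.0374 by limma), was lower in taste buds than in LE of animal 3, and lost its call when animal 1, 2, 4, 5 or 6 was left out (adjusted p 0.0665 to 0.0983). The fibroblast markers DCN and LUM did not pass (adjusted p of 0.437 and 0.544 by limma). The endothelial sum in LE of animal 3 was 1523 units, with 219 to 409.9 in the other LE samples, and taste buds of animal 2 had 1177.

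The remaining genes of the strongest changes on either side came from several functions. A common direction in 6 of 6 animals and at least 25 units in every sample of the brighter group were conditions of their choice. DCLK1, a kinase known from tuft cells, had 1487 to 2966 units in taste buds and 5.57 to 8.64 in LE. MCTP1, a calcium-binding membrane protein, had 280.4 units in taste buds of animal 6 and 1739 to 3236 in the other 5. TGFB2, a growth factor, had 2844 to 5174 against 9.69 to 15.0, SCD5, a fatty acid desaturase, 1456 to 2919 against 3.53 to 21.0, and TUBB2B, a neuronal tubulin, 2466 to 3131 against 6.72 to 19.4. The name TGFB2 comes from the gene table of the study, which lists genes selected as higher in taste buds. SLC35F1 and PDE1C also rose, by 8.33 and 8.01, the latter on a probe set that the annotation calls NIF3L1.

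On the other side, ARG1, the arginase of the urea cycle, had 5.63 to 61.0 units in taste buds and 768 to 3389.8 in LE (at least 69.6-fold lower). BLNK, an adapter known from B cells, had 6.11 to 62.8 against 1697 to 2513. CRISP3, a secreted cysteine-rich protein, ranged from 8.60 units to 1598 in taste buds of animal 4, and was at 2106 in LE of animal 6 and 8012 to 8928 in the other LE samples. GSG1, PDZK1IP1, NABP1 and LYPD2 fell with log2 changes of -7.58, -7.28, -6.88 and -6.79. All of these passed in limma, with adjusted p between 4.7e-06 and 0.00114 for the 28 genes of the strongest changes.

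The taste bud effect at FG papillae was set against the same effect at CV papillae, which was sampled in 4 of the 6 animals. In a fit of these 20 samples, the difference between both effects passed for 228 of 26176 probe sets, 157 (0.600%) with the FG effect above the CV effect and 71 (0.271%) below. Probe sets entered with at least 25 units in 4 or more of the 20 samples, so a gene bright in 1 group only entered through that group. PLAC8, a cysteine-rich protein of many epithelia, had 998 to 2728 units in FG taste buds and 9.90 to 75.1 in adjacent LE, whereas CV taste buds and the LE beside them both had it, with means of 1399 and 1605 (difference of effects 5.76 ± 0.55, adjusted p = 0.000334 by limma). SEZ6L had 226 to 1013 units in FG taste buds and 7.67 to 12.2 in LE, against means of 9.52 and 8.62 at CV papillae (difference 5.30 ± 0.55, adjusted p = 0.000631 by limma). CCL2 and UBD, both higher in FG taste buds, had differences of 4.58 ± 0.71, adjusted p = 0.00881 and 4.13 ± 0.78, adjusted p = 0.027 by limma, with CV taste bud means of 103 and 42.1 units.

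Among genes with the higher effect at CV papillae, several were at or near background in FG taste buds. BMPR1B, a receptor of bone morphogenetic proteins, had at most 8.63 units in FG taste buds and 8.15 in adjacent LE, and averaged 331 in CV taste buds (difference -5.97 ± 0.50, adjusted p = 0.000138 by limma). It reached the intensity limit only through CV taste buds. The names BMPR1B and ERBB4 come only from the gene table of the study, which lists genes selected as higher in taste buds. ERBB4, a neuregulin receptor, and LGR5, a stem cell marker, had at most 28.0 and 44.9 units in FG taste buds and averaged 333 and 424 in CV taste buds (differences -5.50 ± 0.75, adjusted p = 0.00447 and -4.99 ± 1.06, adjusted p = 0.0417 by limma). APCDD1, an inhibitor of Wnt signalling, did not differ past the threshold at FG papillae (log2 change -0.40 ± 0.60, adjusted p = 0.618 by limma) but was higher in CV taste buds by 4.57. NFIB was lower in FG taste buds and higher in CV taste buds than in the LE beside them (log2 changes -3.02 and 2.48). For CLDN10 the LE means were 8.96 units beside FG papillae and 2015 beside CV papillae, and for PCK1 they were 14.7 and 1038. The LE groups were not tested against each other. The number of such differences rested on a few animals, with 8 above and 4 below without animal 3, 16 and 3 without animal 4, 25 and 11 without animal 5 and 78 and 21 without animal 1. GNAT3, PLCB2 and SHH did not differ between the sites past the threshold (adjusted p of 0.626, 0.77 and 0.715 by limma).

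**Figure D5:**
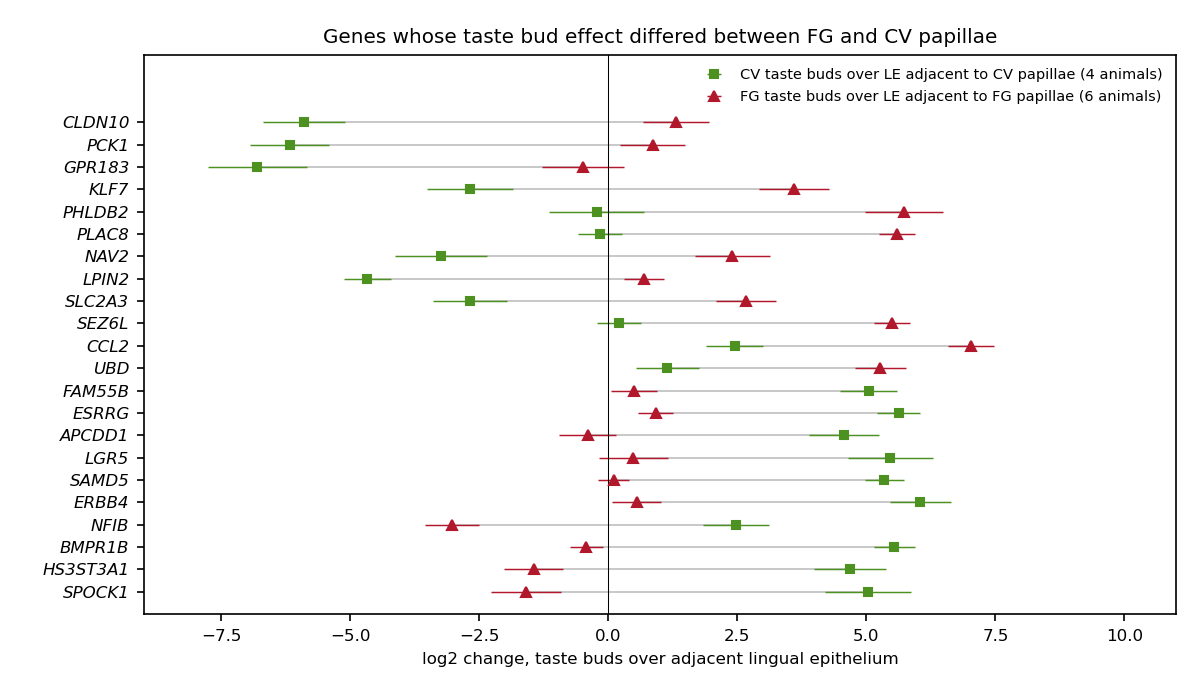
Log2 change of taste buds over adjacent LE (x axis) at FG papillae (red triangles, 6 animals) and CV papillae (green squares, 4 animals) for the 22 named genes whose effects differed at an adjusted p of at most 0.05, with standard errors of the fit as bars. Genes in the upper part have the higher effect at FG papillae, among them PLAC8 and SEZ6L with CV effects near 0, and genes in the lower part the higher effect at CV papillae.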

How the data were processed

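Of the 28 arrays, 12 entered the comparison and 20 the comparison of papillae. The deposited values are GC-RMA intensities (linear units), for which the authors used GeneSpring, with background correction and quantile normalization over all samples. Versions: not given in the sources used here. Intensities were log2 transformed, and probe sets with at least 25 units in 4 or more samples were fitted with limma 3.58.1 in R 4.3.3 with the animal as a fixed block and Benjamini-Hochberg adjustment over all tested. In simulated data the fit passed 0 of 50 probe sets changed 2-fold, 9 of 50 at 3-fold, 29 of 50 at 5-fold and 35 of 50 at 8-fold. Only these were changed among 23482 probe sets, whereas in the data 4690 passed as higher and 3971 as lower. The adjustment was therefore stricter in the simulation, and its shares do not give the power in the data. In simulated data the fit of papillae passed 90 of 200 at 8-fold. A gene that did not pass may still differ. A call needs a 5-fold change and an adjusted p no higher than 0.05, and genes, gene lists and differences between papillae the adjusted p alone. Errors are standard errors of the fit. Linear folds compare geometric means with values under 25 raised to 25, and "at least" marks bounds.

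The pairing comes from the animal numbers of the labels. Deviations from the group means correlated at a mean r of 0.0581 within animals and -0.0117 between animals. Arrays have no read depth, so precision is limited by 6 animals and by background. The share of probe sets at or over 25 units was 37.4% to 40.6% per array. Probe sets were named by the gene table of the study, then by the array annotation, and a gene of the annotation by its brightest probe set. The table of the study also holds the authors' own comparisons, which were not used. Named were the 14 largest called changes with a symbol in each direction that were alike in 6 animals, up to 3 passing members of each list and 2 against its majority, 16 taste genes, the 8 brightest muscle genes in LE of animal 3 and the 10 largest differences between papillae each way. Other genes were chosen after their values were seen, and some genes that the rules name are not reported here. Members and lists were chosen with earlier results of these data known. Alternatives were the fit without the block, other limits on dim values, centred arrays, the methods' t-test and each animal left out.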

Additional observations from a re-analysis of the deposited data

Results flagged for a closer look

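In 30 of 236 groups of 6 values of named genes with at least 1 value over 25 units (12.7%), 1 sample lay far from the other 5 by Dixon's criterion on the log2 scale. About 1 in 20 would lie there among unselected, independent groups. These genes were chosen by their values and share samples, so the 2 shares cannot be compared. CKM, MYL2, MYOM2 and MYOT were chosen because they were bright in LE of animal 3. For SV2B (28.8 against 139 to 342) and TAS2R10 (20.3 against 165 to 422), in units, FG taste buds of animal 1 stood apart as the lowest sample. In animal 3, FG taste buds had the highest values, in units, for LGR5 (44.9 against 3.90 to 8.97). FG taste buds of animal 3 had the lowest values, in units, for IL8 (1289 against 3209 to 5444) and NUCB2 (97.8 against 429.6 to 932). For ARG1 (61.0 against 5.63 to 10.4) and BLNK (62.8 against 6.11 to 10.7), in units, FG taste buds of animal 4 stood apart as the highest sample. In animal 5, FG taste buds had the highest values, in units, for ALOX12B (144 against 12.9 to 30.7), CXCL14 (7571 against 5888 to 6240.2), DSG1 (67.5 against 7.97 to 13.5) and PKP1 (58.7 against 11.9 to 16.2). FG taste buds of animal 5 had the lowest values, in units, for CD68 (71.6 against 100.1 to 122) and ITGA6 (1877 against 2028 to 2079). For DCLK1 (1487 against 2356 to 2966) and MCTP1 (280.4 against 1739 to 3236), in units, FG taste buds of animal 6 stood apart as the lowest sample. In animal 2, LE had the highest values, in units, for NRXN3 (72.3 against 23.3 to 28.5). LE of animal 3 had the highest values, in units, for CKM (1741 against 17.6 to 69.5), MYL2 (1546 against 24.0 to 61.4), MYOM2 (2092 against 30.4 to 68.0), MYOT (1640.3 against 4.56 to 10.0) and PDE1C (29.5 against 3.98 to 5.98). For APCDD1 (107 against 1496 to 3681), ITGA6 (10.2 against 275 to 662) and SLC45A2 (1717 against 5120.2 to 9789.6), in units, LE of animal 5 stood apart as the lowest sample. In animal 6, LE had the lowest values, in units, for BPIFA1 (15.1 against 27.9 to 38.4), CRISP3 (2106 against 8012 to 8928), GSG1 (276 against 2347 to 5257), IL36A (362 against 2815 to 5996), NABP1 (328 against 3380.3 to 4000.1) and SPINK7 (712 against 3479 to 7214).

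The taste bud effect differed between FG and CV papillae, by limma, for 22 named genes. The FG effect minus the CV effect, on the log2 scale, was positive for CLDN10 (7.21), PCK1 (7.04), GPR183 (6.31), KLF7 (6.27), PHLDB2 (5.95), PLAC8 (5.76), NAV2 (5.64), LPIN2 (5.36), SLC2A3 (5.36), SEZ6L (5.30), CCL2 (4.58) and UBD (4.13). It was negative for SPOCK1 (-6.62), HS3ST3A1 (-6.13), BMPR1B (-5.97), NFIB (-5.50), ERBB4 (-5.50), SAMD5 (-5.25), LGR5 (-4.99), APCDD1 (-4.97), ESRRG (-4.71) and FAM55B (-4.55). Leaving out 1 animal ended the call of APCDD1, CCL2, CLDN10, ERBB4, GPR183, HS3ST3A1, KLF7, LGR5, NAV2, NFIB, PCK1, PHLDB2, SLC2A3, SPOCK1 and UBD, with adjusted p of up to 0.192 among the alternatives. With values raised to 25 units, the calls of FAM55B, GPR183, LGR5 and SLC2A3 were lost.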

How the results depend on the processing

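The comparison of FG taste buds with adjacent LE gave 2116 probe sets higher and 947 lower. Raising values under 25 to 25 units left 1387 higher, and centring each array on its median gave 1464 lower. Leaving out 1 animal gave 1920 to 2315 higher and 863 to 979 lower. Without the replicate block the paired fit turned into 2119 higher and 949 lower and changed no count by over 1.5 times, and of the named genes COL6A3 and L1CAM lost their call without it. The methods' t-test, unadjusted with a 5-fold ratio of means, gave 1774 higher, and after Benjamini-Hochberg 1770 higher and 822 lower. The difference between papillae was called for 157 probe sets above and 71 below in limma, with 3909 at an unadjusted p under 0.05. It became 190 and 86 without the replicate block, 246 above with values raised to 25 units, and 8 to 150 above and 3 to 51 below with 1 animal left out. The cause was not tested, other than that leaving out animal 1, 3, 4 or 5 removes 1 of 4 CV pairs. Of 1756 values of named genes under the alternatives, 1598 kept their direction and side of the threshold, 146 lost their call, 4 gained one and no called value changed sign. Another 8 values, of GPR183, MB, MYL1, MYOM2 and SCNN1G at FG papillae, changed sign without passing in either fit. The gains were CKM without animal 2, HS3ST3A1 with centred arrays and NCAM1 with centred arrays and in the methods' t-test. Values near 25 units lie within background, where limma cannot order them.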
